A study of Homo sapiens with 15 samples.

Results

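The comparison set the arrays taken 0.5 h after epidermal growth factor (EGF) against those taken 24 h after it, in H1975 cells. Arrays were chosen by the hour in their title, which gave 2 arrays at 0.5 h (replicates 1 and 3) and 3 arrays at 24 h (replicates 1, 2 and 3) of 15 arrays in all. H1975 is 1 established human line of non-small cell lung cancer whose EGF receptor gene carries mutations. In both groups the cells were left overnight in medium lacking fetal calf serum and then received EGF at 50 ng/ml in that same medium. Gene expression was measured with Affymetrix Human Gene 2.0 ST arrays, and each value is a SCAN score, the background-corrected log-scale signal of a probe set standardised within its own array. A difference in SCAN units therefore describes a transcript relative to the rest of its array, and it is not a fixed fold change. Unstimulated cells were not analysed here, so 0.5 h is an early treated state and no baseline. Hours after EGF and hours without serum ran together and cannot be told apart. No source says that the replicates were separate cultures, so p-values measure the spread between these arrays, which may be technical. In such bulk RNA, fewer cells of a kind and less RNA per cell cannot be told apart.

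EGF binds its receptor, a tyrosine kinase of the cell surface, and passes the signal through RAS and the kinase ERK to the nucleus. Within minutes ERK switches on immediate-early genes such as FOS, JUN and EGR1, whose transcripts are short-lived and whose proteins are transcription factors. Later waves encode inhibitors that damp the pathway and, in cells that can divide, the cyclins, helicases and enzymes that copy the genome. Promoter elements mark the later waves, E2F sites in genes of DNA replication and the cell cycle homology region (CHR) in genes of mitosis.

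Of 14675 genes tested with limma, 2526 (17.2%) were called at a Benjamini-Hochberg adjusted p under 0.05. A total of 1461 genes (9.96%) were higher at 24 h and 1065 (7.26%) were lower, the shares to set beside the list counts below. With the median of each array subtracted, the split turned to 1187 higher and 1335 lower, so the balance of the directions depended on scaling. The differences were small for most genes, with a median absolute difference of 0.142 among the genes called. Without replicate 1 of the 0.5 h arrays 1472 genes were called (787 higher, 685 lower), and without their replicate 3, 1685 (1013 higher, 672 lower), the remaining array being taken to vary like the others. The tails were uneven, since 14 genes fell by 0.5 SCAN units or more and 6 rose by that much. All 5 values of a gene were separated by group, without overlap, in 6432 genes (43.8%), which included 2524 of those called. The 5 arrays were alike in scale, with median scores between 0.0706 and 0.0789. Correlation over the genes of 1 pair of arrays, a figure in which genes do not count as replicates, was 0.997 within an hour and from 0.990 to 0.991 between the hours.

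**Figure D1:**
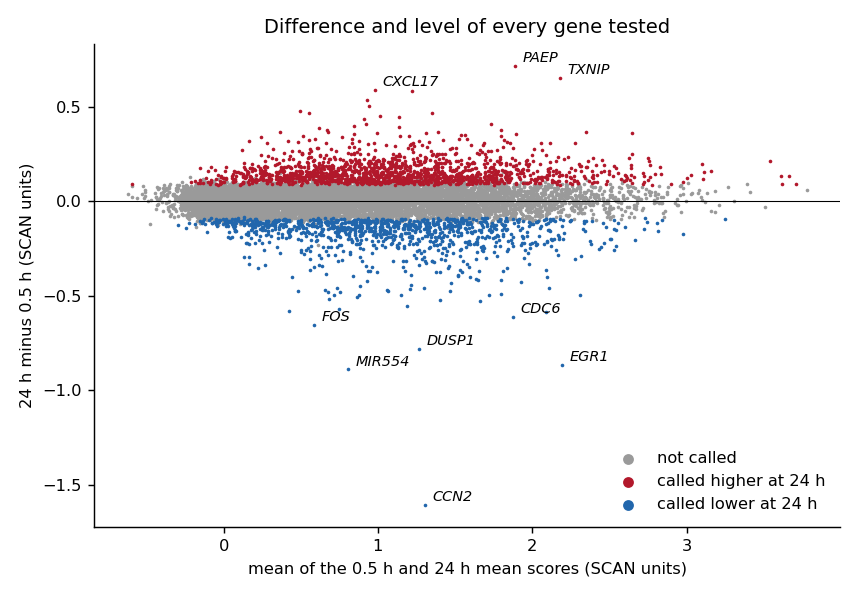
Difference between 24 h and 0.5 h (vertical axis, SCAN units) against the mean of both group means (horizontal axis, SCAN units) for 14675 genes, with genes called higher at 24 h in red, lower in blue and the others in grey. CCN2 lies lowest at -1.61 and PAEP highest at 0.71, and more genes reach -0.5 (14) than 0.5 (6).

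Transcripts of immediate-early factors held some of the largest single falls. Of 21 immediate-early transcription factors measured, 12 were lower at 24 h and 2 were higher, and their median difference was -0.15 beside 0.0030 over all genes. EGR1, a zinc finger factor, scored 2.62 and 2.64 on the 0.5 h arrays and 1.75, 1.79 and 1.74 on the 24 h arrays. It fell by 0.87 ± 0.033 (SE) with adjusted p = 1.13e-11. FOS, a subunit of the AP-1 factor, scored 0.95 and 0.88 on the 0.5 h arrays and 0.26, 0.26 and 0.26 on the 24 h arrays, a difference of -0.65 ± 0.031 (SE) with adjusted p = 1.38e-10. JUN, its partner in AP-1, went from 1.95 and 1.91 to 1.39, 1.42 and 1.39, a difference of -0.53 ± 0.030 (SE) with adjusted p = 2.59e-09. In all of these genes the lowest 0.5 h array stood above the highest 24 h array. KLF6, a Krüppel-like factor, SNAI2, a repressor of E-cadherin, and MYC, a driver of cell growth, fell by 0.43, 0.40 and 0.37. Dimmer members fell less, with differences of -0.33 for FOSB, -0.20 for EGR3 and -0.15 for ATF3, and the other probe set of FOSB gave -0.071. JUNB went from 1.91 and 1.83 to 1.76, 1.85 and 1.80, and its groups overlapped. The members called higher were KLF10 at 0.10 and IER5 at 0.16. Without replicate 1 of the 0.5 h arrays KLF10 and ATF3 were no longer called, with adjusted p = 0.153 and 0.0753, and KLF10 was also lost without replicate 3 at 0.5 h or replicate 1 or 3 at 24 h. SRF, the factor that turns on many of these genes through CArG boxes, differed by 0.03 ± 0.030 (SE), with adjusted p = 0.609.

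The promoters of EGR1 and DUSP1 are shown because these genes gave the largest falls of the transcription factors and of the ERK inhibitors. Sequences are from RefSeq (GRCh38.p14), run 5′ to 3′ from 250 bases before to 50 bases after the start of the gene, and come from chr5:138465229-138465528, plus strand, and chr5:172771146-172771445, minus strand. Capitals mark CArG boxes in EGR1 and the cAMP response element TGACGTCA in DUSP1.
EGR1: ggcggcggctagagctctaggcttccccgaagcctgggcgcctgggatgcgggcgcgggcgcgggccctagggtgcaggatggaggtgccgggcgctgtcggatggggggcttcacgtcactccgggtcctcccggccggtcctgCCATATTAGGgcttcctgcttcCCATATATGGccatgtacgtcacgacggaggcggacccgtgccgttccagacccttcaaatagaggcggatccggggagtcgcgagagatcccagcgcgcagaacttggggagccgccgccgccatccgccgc
DUSP1: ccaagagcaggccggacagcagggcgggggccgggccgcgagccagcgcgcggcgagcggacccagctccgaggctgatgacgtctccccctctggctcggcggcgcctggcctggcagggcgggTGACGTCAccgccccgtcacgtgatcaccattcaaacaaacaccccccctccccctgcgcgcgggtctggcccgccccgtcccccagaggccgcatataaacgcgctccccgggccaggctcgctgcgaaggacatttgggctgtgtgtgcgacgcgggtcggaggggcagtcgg
A CArG box on either strand was found in 13.3% of 15 immediate-early promoters with a sequence, those of EGR1 and SRF, and in 1.22% of 10707 promoters of tested genes. The cAMP response element was found in 3 (21.4%) of 14 promoters of feedback regulators, those of DUSP1, DUSP8 and NF1, and in 2.62% of all. The promoter of DUSP2, which was also lower at 24 h, lacked it. Such a match is a description of the letters, and binding was not measured.

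The largest single difference belonged to CCN2, which encodes a secreted matricellular protein and is a target of YAP and of serum response factor. It scored 2.12 and 2.10 on the 0.5 h arrays and 0.44, 0.53 and 0.54 on the 24 h arrays, a difference of -1.61 ± 0.042 (SE) with adjusted p = 3.55e-14. The single arrays in between placed most of this fall between 2 h (1.78) and 4 h (0.40), and the score stayed near 0.51 from then on. Of 13 YAP and serum response factor targets measured, 6 were lower and 2 were higher (1 without replicate 1 at 0.5 h), with a median of -0.098. EDN1, the precursor of endothelin-1, went from 1.00 and 0.99 to 0.50, 0.54 and 0.50, and THBS1, the matrix protein thrombospondin-1, went from 2.27 and 2.33 to 1.95, 1.83 and 1.90. Their differences were -0.48 ± 0.035 (SE) and -0.40 ± 0.036 (SE). The actin-binding TPM1 fell by 0.39, and its second probe set gave -0.22. AMOTL2, an angiomotin that binds YAP, fell by 0.15, while CNN2, a calponin, was higher by 0.15, with 0.046 from its other probe set. The counts of this list stand beside 7.26% lower and 9.96% higher over all genes.

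**Figure D2:**
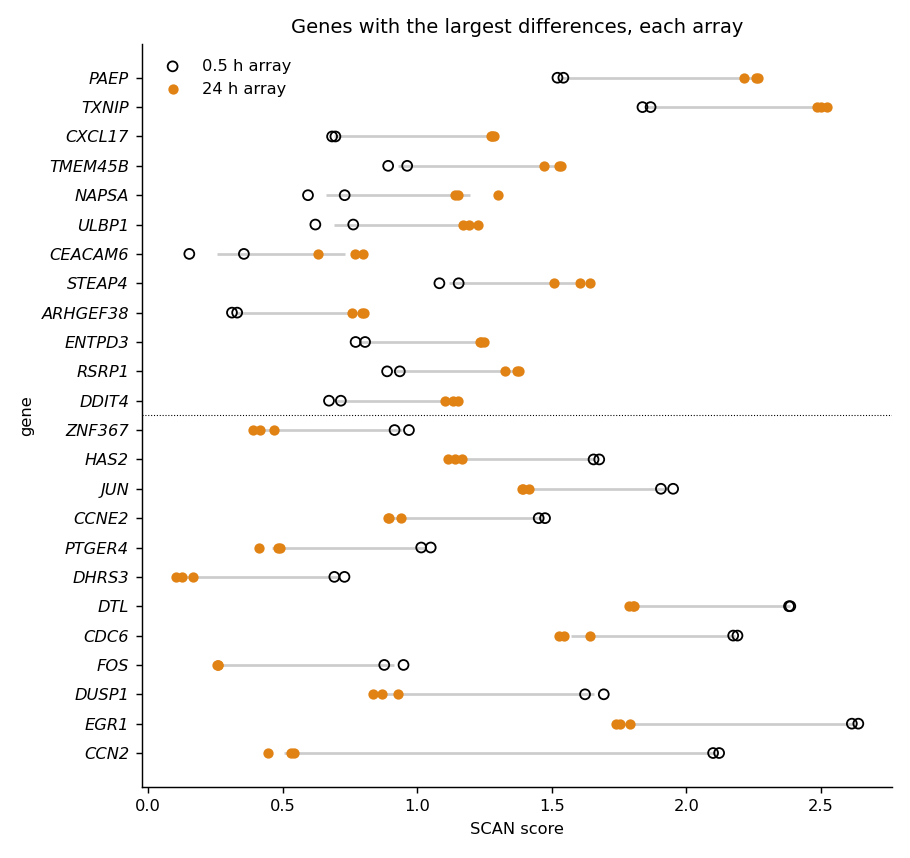
SCAN scores (horizontal axis) of the 12 genes with the largest rise (above the dotted line) and the 12 with the largest fall (below it), with open circles for the 2 arrays at 0.5 h, filled circles for the 3 arrays at 24 h and grey lines joining the means. Symbols of small RNA, LINC, antisense, open reading frame and similar kinds were left out, MIR554 among them. No gene shown overlaps between groups, and the gap of CCN2, from means of 2.11 to 0.51, is the widest.

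Inhibitors of the pathway did not move as a block. Over all genes 7.26% were lower and 9.96% were higher. Of 21 feedback regulators of ERK and EGFR signalling, 5 (23.8%) were lower, 4 (19%) were higher and 12 were not called. The higher calls rested on single arrays, with 0 left without replicate 1 at 0.5 h and 2 without replicate 3 at 0.5 h or replicate 2 or 3 at 24 h. The 5 that fell were dual-specificity phosphatases, enzymes that switch off MAP kinases. DUSP1 scored 1.62 and 1.69 on the 0.5 h arrays and 0.84, 0.93 and 0.87 on the 24 h arrays, a difference of -0.78 ± 0.035 (SE) with adjusted p = 6.81e-11. DUSP5, DUSP4 and DUSP2 differed by -0.26, -0.20 and -0.16. SPRY2, a Sprouty protein that restrains RAS signalling, went from 1.26 and 1.33 to 1.35, 1.46 and 1.45, a call that was lost without replicate 1 at 0.5 h (adjusted p = 0.253) or replicate 2 or 3 at 24 h. At the receptor level, 7 (30.4%) of 23 receptor tyrosine kinases were higher and 3 (13%) were lower. Their median of 0.0073 turned to -0.0045 with median centring. Without replicate 1 at 0.5 h, 4 were higher and 1 was lower, without replicate 3 at 0.5 h 1 was lower, and the median lay between 0.0064 and 0.0239 when 1 array was left out. KDR, a receptor for VEGF, went from 0.46 and 0.39 to 0.81, 0.85 and 0.79, a difference of 0.39 ± 0.033 (SE). ERBB3, a receptor that pairs with other members of the EGFR family, went from 1.34 and 1.32 to 1.60, 1.63 and 1.59, and its groups did not overlap. MST1R, the receptor of macrophage-stimulating protein, and DDR1, a collagen receptor, were higher by 0.25 and 0.21, with 0.089 from the second probe set of MST1R. EGFR itself was higher by 0.09 (adjusted p = 0.037), a call that was lost when any 1 of the 5 arrays was left out (adjusted p between 0.0532 and 0.278) and with median centring (adjusted p = 0.0717). EPHA2, an ephrin receptor, fell by 0.24.

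Several secreted signals known to be induced early by growth factors were lower at 24 h. Of 9 ligands of the EGF family measured, 3 (33.3%) were lower and none was higher, beside 7.26% and 9.96% of all genes. HBEGF, which is shed from the cell surface to bind EGFR, scored 0.92 and 0.99 on the 0.5 h arrays and 0.63, 0.70 and 0.69 on the 24 h arrays, and EREG, epiregulin, went from 2.18 and 2.20 to 1.96, 1.99 and 1.95. NRG1, a ligand of ERBB3, differed by -0.15. Among 21 cytokines and chemokines, 3 were lower and 4 were higher, or 2 higher without replicate 1 or replicate 3 at 0.5 h. CXCL8, the neutrophil chemokine interleukin 8, went from 1.07 and 0.85 to 0.38, 0.46 and 0.57, a difference of -0.49 ± 0.055 (SE) with the widest spread of the genes named in this paragraph. CXCL2 and CCL2, further chemokines, fell by 0.25 and 0.19, whereas CXCL17, a chemokine of mucosal surfaces, rose by 0.59. Of 10 prostaglandin genes, 3 (30%) fell and none rose. PTGER4, a receptor for prostaglandin E2, went from 1.01 and 1.05 to 0.48, 0.41 and 0.49, and PTGES, which makes this prostaglandin, went from 1.76 and 1.82 to 1.48, 1.44 and 1.53. PTGS2, the cyclooxygenase upstream of it, scored 1.47 and 1.55 on the 0.5 h arrays and 1.46, 1.49 and 1.41 on the 24 h arrays, and its groups overlapped. Among the 12 largest falls, in no list, were DHRS3, a reductase of retinaldehyde, at -0.58 ± 0.031 (SE), and HAS2, a hyaluronan synthase, at -0.52 ± 0.031 (SE).

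The machinery that starts DNA replication fell in all its measured genes, each read by its kept probe set. All 19 licensing and helicase genes measured were lower at 24 h, none of them overlapped between groups, and their median difference was -0.34. CDC6, which loads the replicative helicase on origins, scored 2.19 and 2.17 on the 0.5 h arrays and 1.54, 1.64 and 1.53 on the 24 h arrays, a difference of -0.61 ± 0.038 (SE) with adjusted p = 6.21e-09. The helicase subunits MCM3 and MCM6 went from 1.97 and 1.97 to 1.47, 1.50 and 1.45, and from 2.03 and 2.06 to 1.54, 1.58 and 1.53, and MCM10, which helps to activate the helicase, differed by -0.49 ± 0.029 (SE). GINS2 and CDC45, partners of the active helicase, fell by 0.46 and 0.46. GINS4 differed by -0.29, but its other probe set gave 0.0037. Of 17 genes of nucleotide supply and fork enzymes, 16 were lower, with a median of -0.31. They included PCNA, the sliding clamp, at -0.42 ± 0.030 (SE), TYMS, thymidylate synthase, at -0.42 ± 0.030 (SE), EXO1, an exonuclease, at -0.47 ± 0.029 (SE), and UHRF1, which guides maintenance of DNA methylation, at -0.48 ± 0.036 (SE). RRM2, the regulated subunit of ribonucleotide reductase, fell less, by 0.26. Of 22 regulators of the G1 to S transition, 17 were lower and 2 were higher, or 1 higher without replicate 1 at 0.5 h or replicate 1 or 2 at 24 h. DTL, which directs replication proteins to degradation, went from 2.39 and 2.38 to 1.80, 1.79 and 1.80, and the cyclin CCNE2 went from 1.48 and 1.45 to 0.89, 0.94 and 0.89. E2F1 and E2F8, an activator and a repressor of E2F targets, differed by -0.35 ± 0.032 (SE) and -0.34 ± 0.030 (SE). The pocket proteins went opposite ways, with RBL1 lower by 0.33 ± 0.031 (SE) and RBL2, which represses cell cycle genes in resting cells, higher by 0.26 ± 0.031 (SE). The cyclin CCND1 differed by 0.04 ± 0.034 (SE), with overlapping groups. ZNF367, a zinc finger gene in no list, stood among the 12 largest falls at -0.52 ± 0.033 (SE). In DNA repair, 14 of 18 genes were lower and none was higher, led by RAD54L, a recombination motor, at -0.40, and UNG, which removes uracil from DNA, at -0.38.

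Promoters of CDC6 and MCM6 are shown because both genes belong to the group that fell throughout and hold the E2F site. They come from chr17:40287629-40287928, plus strand, and chr2:135876394-135876693, minus strand (RefSeq, GRCh38.p14, same window). Capitals mark the E2F site, searched on both strands as TTTCGCGC, TTTGGCGC or TTTCCCGC, and in MCM6 the matches of both strands overlap in pairs.
CDC6: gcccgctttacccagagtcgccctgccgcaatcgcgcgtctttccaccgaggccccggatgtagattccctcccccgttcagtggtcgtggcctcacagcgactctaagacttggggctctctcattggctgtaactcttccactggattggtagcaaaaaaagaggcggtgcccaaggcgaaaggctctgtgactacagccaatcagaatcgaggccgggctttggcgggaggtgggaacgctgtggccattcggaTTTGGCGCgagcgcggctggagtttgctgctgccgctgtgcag
MCM6: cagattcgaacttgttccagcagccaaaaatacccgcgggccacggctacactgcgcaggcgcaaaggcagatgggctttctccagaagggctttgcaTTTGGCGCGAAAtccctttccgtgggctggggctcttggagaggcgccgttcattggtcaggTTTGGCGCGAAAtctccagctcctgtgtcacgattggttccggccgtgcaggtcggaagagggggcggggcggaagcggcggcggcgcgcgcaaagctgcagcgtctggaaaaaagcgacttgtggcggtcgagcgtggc
The E2F site occurred in 66.7% of 15 licensing promoters, 40.0% of 15 promoters of nucleotide and fork genes and 41.2% of 17 promoters of G1 to S regulators. Among all 827 promoters of genes called lower it occurred in 9.92%, and in 3.74% of the 10707 promoters of tested genes.

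Genes of G2 and mitosis fell in a smaller share, and by less, than the licensing and fork genes. Of 71 measured, 50 (70.4%) were lower at 24 h and 1 was higher, with a median difference of -0.14. The shares called lower were 100% of the licensing genes and 94.1% of the fork genes. The kinetochore genes CENPM and CENPI had the largest differences, -0.30 ± 0.031 (SE) and -0.29 ± 0.030 (SE). MKI67, the proliferation antigen, scored 2.49 and 2.50 on the 0.5 h arrays and 2.27, 2.26 and 2.26 on the 24 h arrays, a difference of -0.23 ± 0.029 (SE) with adjusted p = 2.14e-05. CDC20, an activator of the anaphase-promoting complex, went from 2.08 and 2.00 to 1.87, 1.82 and 1.85, and CCNB1, the mitotic cyclin B1, went from 1.86 and 1.88 to 1.65, 1.76 and 1.65. CDK1, the kinase partner of cyclin B1, and LMNB1, a lamin of the nuclear envelope, fell by 0.16 and 0.27. TOP2A, which untangles chromosomes, fell by 0.11 (adjusted p = 0.0179), a call lost without replicate 3 at 0.5 h (adjusted p = 0.166) or replicate 1 or 2 at 24 h. The mitotic kinases PLK1 and AURKA gave -0.10 ± 0.035 (SE) (adjusted p = 0.0602) and -0.10 ± 0.035 (SE) (adjusted p = 0.073). Neither was called although their groups did not overlap, as in 43.8% of all genes. With median centring both passed the threshold (adjusted p = 0.037 and 0.0429). CDC25B, a phosphatase that activates CDK1, was the member called higher.

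Promoters of CDC20 and MKI67 are shown as examples that hold the CHR element, which capitals mark (TTTGAA or TTCGAA, both strands). They come from chr1:43358731-43359030, plus strand, and chr10:128126374-128126673, minus strand (RefSeq, GRCh38.p14).
CDC20: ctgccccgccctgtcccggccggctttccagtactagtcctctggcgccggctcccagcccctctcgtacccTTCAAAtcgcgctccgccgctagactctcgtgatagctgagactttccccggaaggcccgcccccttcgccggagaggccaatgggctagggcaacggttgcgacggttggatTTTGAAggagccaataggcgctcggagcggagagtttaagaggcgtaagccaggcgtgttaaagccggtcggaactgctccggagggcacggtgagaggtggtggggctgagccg
MKI67: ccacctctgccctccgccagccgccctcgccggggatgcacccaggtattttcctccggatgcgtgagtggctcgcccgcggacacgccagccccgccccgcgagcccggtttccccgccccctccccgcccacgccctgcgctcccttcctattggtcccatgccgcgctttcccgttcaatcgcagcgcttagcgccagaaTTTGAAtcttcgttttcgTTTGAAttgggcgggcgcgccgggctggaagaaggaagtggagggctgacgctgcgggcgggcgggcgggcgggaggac
The CHR element occurred in 73.3% of 60 promoters of G2 and M phase genes, 19.5% of promoters of genes called lower and 13.2% of all. The CCAAT box was also in 73.3% of the G2 and M phase promoters, beside 36.0% of all.

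**Figure D3:**
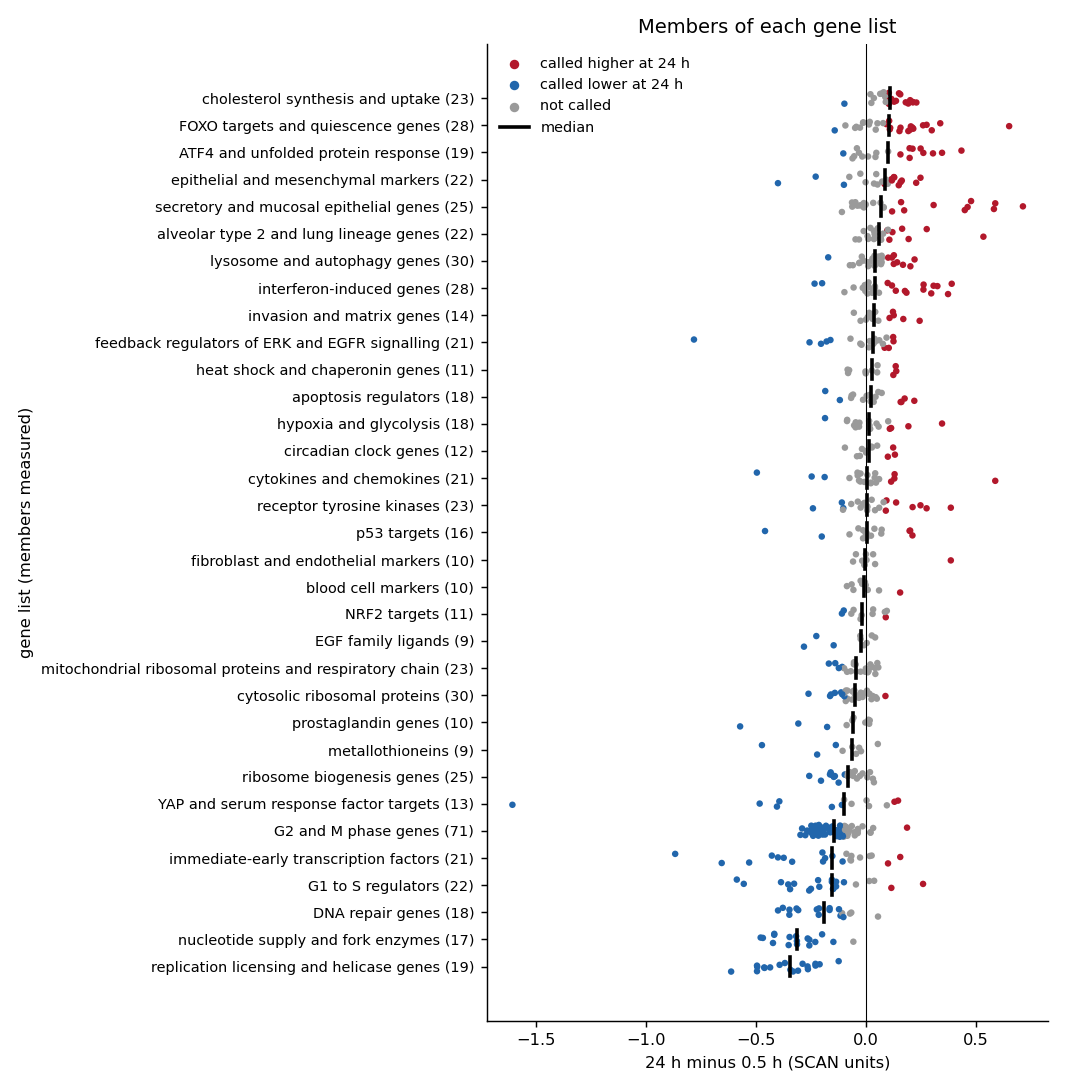
Difference between 24 h and 0.5 h (horizontal axis, SCAN units) of every measured member of 33 gene lists (vertical axis, ordered by median, with the number measured), in red where called higher at 24 h, blue where called lower and grey otherwise, with the median as a black bar. The replication licensing genes lie wholly below 0 with a median of -0.34, while cholesterol synthesis has the highest median, 0.11.

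Single arrays at the hours in between placed the replication genes in time. Relative to the 0.5 h mean, the median of the licensing genes lay between -0.057 and 0.069 from 1 h to 12 h, stood at -0.35 on the 18 h array and lay between -0.342 and -0.336 on the 24 h arrays. The fork enzymes went from -0.058 at 12 h to -0.32 at 18 h, and the G2 and M phase genes from 0.016 to -0.22, a level below that of the 24 h arrays (-0.157 to -0.134). The immediate-early factors had reached -0.20 by 4 h. Each of these hours had 1 array, so no error belongs to these values, and the label protocol does not list 18 h among its times.

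**Figure D4:**
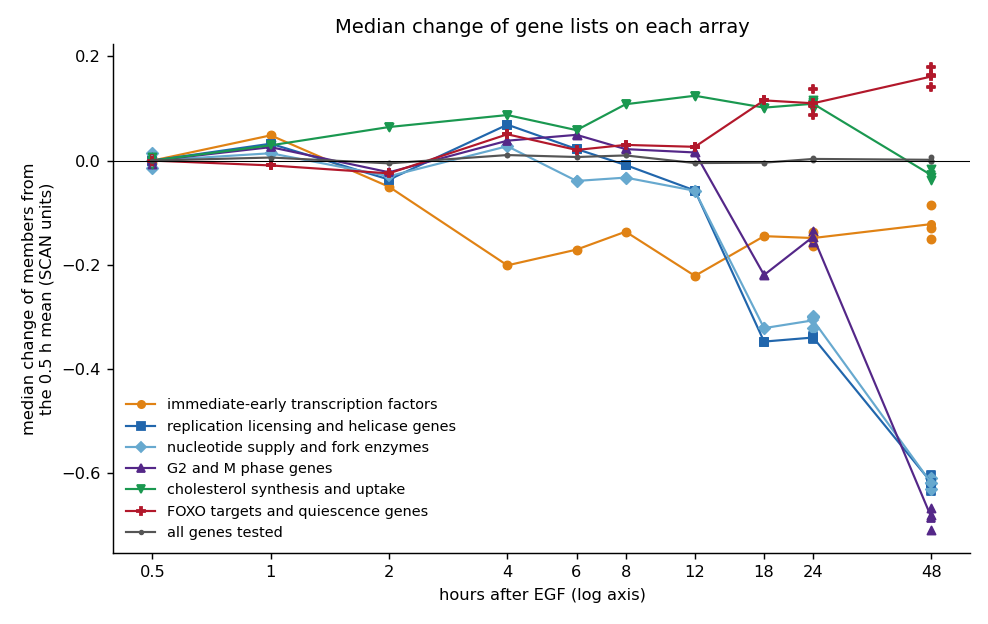
Median change of the members of 6 gene lists and of all genes from the 0.5 h mean (vertical axis, SCAN units) against hours after EGF (log axis), with a point for each array and lines through the mean of an hour. The immediate-early factors drop by 4 h (-0.20), the replication lists between 12 h and 18 h, and the G2 and M phase genes fall again after 24 h.

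The mitotic genes stood much lower at 48 h than at 24 h. The 3 arrays at 48 h, compared with the same 24 h arrays, gave 1889 genes called (12.9%), of which 980 (6.68%) were lower at 48 h. Of the 71 G2 and M phase genes, 70 were lower at 48 h than at 24 h, and the median of that second change was -0.54 beside -0.14 for the first. Both changes use the 24 h arrays, so their difference was tested in 1 contrast, chosen after seeing the data. It was past the threshold in 879 genes (5.99%) and negative in 573 of them (3.90%), and without replicate 3 of the 24 h arrays in 489. In this contrast 57 of 71 G2 and M phase genes were called with a larger fall after 24 h, and none was called the other way. The rest were not called. MKI67 fell by a further 0.75 ± 0.026 (SE) to a mean of 1.51, and the second change differed from the first by -0.53 ± 0.046 (SE) with adjusted p = 1.48e-06. PLK1, not called by 24 h, changed by -0.85 ± 0.031 (SE) afterwards, and the changes differed by -0.75 ± 0.057 (SE) with adjusted p = 2.18e-07. TOP2A likewise gave -0.74 ± 0.028 (SE) after 24 h and -0.63 ± 0.050 (SE) for the difference of its changes. The licensing genes behaved otherwise. Of 19, 18 were called lower again after 24 h, with a list median of -0.28. Yet the 4 genes CDC6, MCM3, MCM6 and MCM10 were called with a larger fall before 24 h. TICRR, a replication initiator, was called with a larger fall after it. CDC6 changed by -0.31 ± 0.034 (SE) after 24 h, and GINS2 fell by 0.56 ± 0.026 (SE), a change that differed from its first by -0.09 ± 0.048 (SE) (adjusted p = 0.301).

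**Figure D5:**
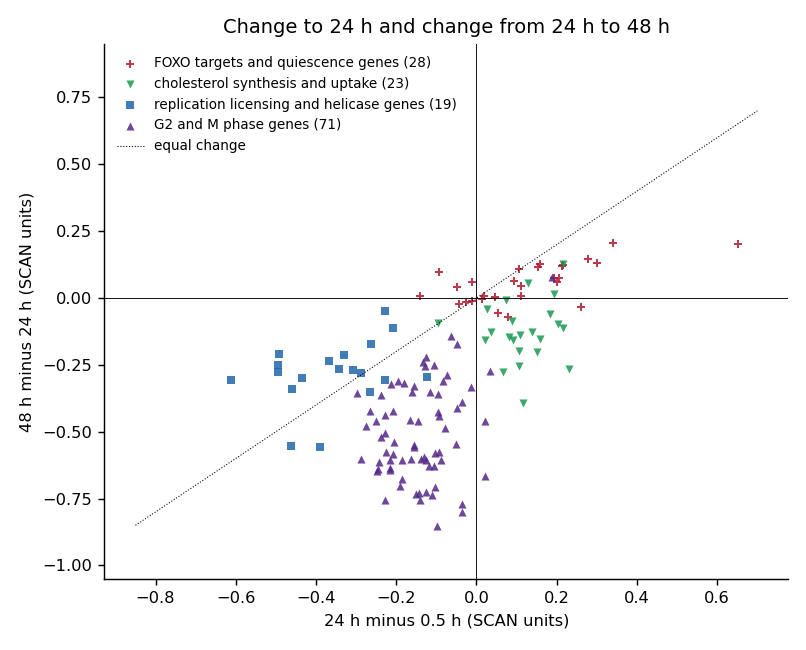
Change from 24 h to 48 h (vertical axis) against change from 0.5 h to 24 h (horizontal axis), both in SCAN units and sharing the 24 h arrays, for the measured members of 4 gene lists, with the dotted line at equal change. G2 and M phase genes lie below the line with medians of -0.14 and -0.54, licensing genes lie on both sides of it, and the cholesterol genes other than ELOVL6 lie right of 0 and below the line.

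Growth genes outside the cell cycle gave smaller values. Of 25 ribosome biogenesis genes, 9 were lower and none was higher, with a median of -0.080, and 4 were lower without replicate 3 at 0.5 h. RRS1, an assembly factor of the large subunit, went from 1.82 and 1.79 to 1.56, 1.52 and 1.55, and NCL, nucleolin, went from 1.85 and 1.92 to 1.65, 1.67 and 1.72. Of 30 cytosolic ribosomal proteins, 7 were lower (11 with median centring) and 1 was higher, a call lost without any 1 array but replicate 1 at 24 h. The list was led by RPL32 at -0.26 ± 0.035 (SE). Among 23 genes of mitochondrial ribosomes and the respiratory chain, 4 were lower and none was higher, with 2 lower without replicate 1 and 1 without replicate 3 at 0.5 h. Of 9 metallothioneins, which bind zinc and copper and whose values are uncertain because the genes are near-identical copies, 3 were lower. MT1X went from 1.28 and 1.31 to 0.77, 0.91 and 0.79.

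Many genes linked to rest and low growth signalling were higher at 24 h. Of 28 FOXO targets and quiescence genes, 16 were higher and 1 was lower, and the median difference was 0.11. TXNIP, an arrestin-like protein that limits glucose uptake, scored 1.87 and 1.84 on the 0.5 h arrays and 2.50, 2.49 and 2.52 on the 24 h arrays, a difference of 0.65 ± 0.031 (SE) with adjusted p = 1.38e-10. ARRDC4, a related arrestin-like protein, went from 0.60 and 0.60 to 0.95, 0.91 and 0.96, and YPEL3 went from 0.71 and 0.86 to 1.06, 1.07 and 1.13. The cyclin CCNG2 was higher by 0.20 ± 0.032 (SE) and PIK3IP1, an inhibitor of PI3 kinase, by 0.22 ± 0.040 (SE). ERBB3 and RBL2, given above, belong to this list as well. FOXO3, the transcription factor itself, was the member called lower at -0.14 ± 0.035 (SE), while its other probe set gave 0.099, and the call was lost with the mean of both (-0.021) and without replicate 3 at 0.5 h (adjusted p = 0.207). At 48 h, 10 members were higher than at 24 h and none was lower.

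Transcripts of secretory and lung epithelium were among the largest rises. PAEP, which encodes the secreted lipocalin glycodelin, scored 1.52 and 1.54 on the 0.5 h arrays and 2.21, 2.27 and 2.26 on the 24 h arrays, a difference of 0.71 ± 0.030 (SE) with adjusted p = 4.43e-11. CXCL17 went from 0.70 and 0.68 to 1.28, 1.28 and 1.27, and TMEM45B, a membrane protein, went from 0.89 and 0.96 to 1.53, 1.53 and 1.47. NAPSA, napsin A, a protease that processes surfactant protein B and marks lung adenocarcinoma, went from 0.59 and 0.73 to 1.14, 1.30 and 1.15, a difference of 0.54 ± 0.052 (SE). The adhesion molecule CEACAM6 was variable at 0.5 h, with 0.15 and 0.36 on the 0.5 h arrays and 0.80, 0.63 and 0.77 on the 24 h arrays, yet its groups did not overlap. ENTPD3, which splits extracellular nucleotides, rose by 0.45. PAEP, CXCL17, TMEM45B, CEACAM6 and ENTPD3 are in a list of 25 secretory and mucosal genes, of which 10 were higher and none was lower, but that list was drawn up with their differences known. Of 22 alveolar type 2 and lung lineage genes, 7 were higher (4 without replicate 1 at 0.5 h) and none was lower, with a median of 0.062. HOPX, a homeodomain protein, went from 0.21 and 0.15 to 0.46, 0.39 and 0.53, and LPCAT1, an enzyme of surfactant lipid, went from 2.18 and 2.20 to 2.36, 2.37 and 2.35. SFTPB, the substrate of napsin A, stayed dim at 0.12 and 0.13 on the 0.5 h arrays and 0.18, 0.15 and 0.25 on the 24 h arrays and was not called. The lineage factor NKX2-1 differed by 0.10 ± 0.031 (SE) (adjusted p = 0.0368), a call that was lost with median centring (adjusted p = 0.0687) and without any 1 array but replicate 1 at 24 h (adjusted p between 0.0538 and 0.292). Further leading rises were ULBP1, a ligand of the natural killer receptor NKG2D, which went from 0.62 and 0.76 to 1.23, 1.17 and 1.19, STEAP4, a metalloreductase, which went from 1.15 and 1.08 to 1.60, 1.51 and 1.64, and RSRP1, which rose by 0.45 ± 0.039 (SE).

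The epithelial markers KRT18 and EPCAM stayed high on the 5 arrays compared. KRT18, a keratin of simple epithelia, scored 2.83 and 2.86 on the 0.5 h arrays and 2.89, 2.91 and 2.89 on the 24 h arrays. Its difference of 0.048 was not called, and its other probe set gave -0.027. EPCAM, an epithelial adhesion molecule, scored 2.14 and 2.14 on the 0.5 h arrays and 2.23, 2.22 and 2.22 on the 24 h arrays. Of 22 epithelial and mesenchymal markers, 10 were higher and 3 were lower, and the higher ones held markers of both kinds. Without replicate 1 or 3 at 0.5 h, 6 and 5 were higher. EPCAM was among the higher, a call lost when any 1 array was left out (adjusted p between 0.079 and 0.17). The tight junction genes CLDN1 and CLDN3 went from 0.78 and 0.85 to 1.00, 1.17 and 1.01, and from 1.45 and 1.50 to 1.68, 1.71 and 1.72. VIM, a mesenchymal filament, was higher by 0.13, but its other probe sets gave 0.005 and 0.011, and the call was lost without replicate 3 at 0.5 h (adjusted p = 0.0878). KRT7, a further keratin, fell by 0.23 ± 0.035 (SE). Of 14 invasion and matrix genes, 5 were higher and none was lower, but 2 were higher without replicate 1 at 0.5 h or replicate 3 at 24 h, and 3 without replicate 3 at 0.5 h. TIMP1, an inhibitor of matrix proteases, went from 1.82 and 1.93 to 2.10, 2.14 and 2.12, and the collagenase MMP13 rose by 0.17 ± 0.037 (SE).

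Interferon-induced genes split by member. Of 28 measured, 12 were higher and 2 were lower, with a median of 0.042. BST2, tetherin, scored 0.99 and 0.90 on the 0.5 h arrays and 1.31, 1.35 and 1.33 on the 24 h arrays, a difference of 0.39 ± 0.035 (SE). IFI44L went from 1.62 and 1.60 to 2.02, 2.03 and 1.92, XAF1 went from 1.39 and 1.33 to 1.72, 1.74 and 1.60, and IRF7, a transcription factor of the response, went from 0.33 and 0.38 to 0.61, 0.62 and 0.63. OASL moved the other way, from 1.15 and 1.13 to 0.91, 0.89 and 0.93, a difference of -0.23 ± 0.029 (SE). After 24 h the list moved further, with 20 members higher at 48 h and none lower.

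Genes of sterol synthesis were higher at 24 h and then turned. The list of cholesterol synthesis and uptake held 23 measured genes, of which 14 were higher at 24 h and 1 (ELOVL6, a fatty acid elongase) was lower, with a median of 0.11, and without replicate 1 of the 0.5 h arrays 7 were called higher. ELOVL6 was no longer called without replicate 1 or 3 at 0.5 h or replicate 1 at 24 h. MVD, an enzyme of the mevalonate pathway, scored 1.32 and 1.29 on the 0.5 h arrays and 1.52, 1.58 and 1.50 on the 24 h arrays, a difference of 0.23 ± 0.033 (SE) with adjusted p = 8.89e-05. MSMO1, a sterol oxidase, went from 2.66 and 2.63 to 2.85, 2.92 and 2.81, and SREBF1 and SREBF2, the factors that drive the pathway, were higher by 0.20 ± 0.034 (SE) and 0.19 ± 0.029 (SE). SCD, which desaturates fatty acids, went from 3.46 and 3.41 to 3.65, 3.66 and 3.64. From 24 h to 48 h, 16 of the 23 were called lower and 1 higher, with a median of -0.13. The second change was called below the first in 17 and above it in none. For MVD the second change was -0.26 ± 0.030 (SE) and differed from the first by -0.50 ± 0.054 (SE) with adjusted p = 1.27e-05. INSIG1, which retains the SREBP factors in the endoplasmic reticulum, was not called by 24 h (0.07 ± 0.029 (SE)) and changed by -0.28 ± 0.026 (SE) after it. On the single arrays the median of the list was already 0.064 at 2 h and 0.12 at 12 h.

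Of 19 genes of the ATF4 and unfolded protein response, 9 were higher and 1 was lower, with a median of 0.10 that fell to 0.049 without replicate 1 at 0.5 h. DDIT4, an inhibitor of the growth kinase mTORC1, scored 0.67 and 0.72 on the 0.5 h arrays and 1.13, 1.15 and 1.10 on the 24 h arrays, a difference of 0.44 ± 0.030 (SE). VEGFA, the vascular growth factor, went from 1.41 and 1.37 to 1.74, 1.76 and 1.72, and ERN1, the stress sensor IRE1, went from 0.71 and 0.65 to 0.99, 0.99 and 0.99. ASNS, asparagine synthetase, TRIB3, a pseudokinase, and PSAT1, an enzyme of serine synthesis, were higher by 0.26, 0.25 and 0.21. ATF4 itself differed by 0.04 ± 0.034 (SE) with overlapping groups, and DDIT3, a factor of the same response, was lower by 0.10 ± 0.030 (SE), a call lost without any 1 array but replicate 1 at 24 h (adjusted p between 0.0647 and 0.152). By 48 h, 5 members were called lower than at 24 h and 2 higher. The second change was called below the first in 8 of the 19 and above it in 1. For TRIB3 this difference was -0.36 ± 0.048 (SE) and for PSAT1 -0.37 ± 0.056 (SE).

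In the smaller remaining lists the calls were mixed or rested on single arrays. Over all genes 9.96% were higher and 7.26% were lower. Of 16 p53 targets, 3 (18.8%) were higher and 2 were lower, counts that held without any 1 array, among them the kinase PLK2, which went from 0.97 and 0.96 to 0.52, 0.53 and 0.46. Of 30 lysosome and autophagy genes, 8 (26.7%) were higher and 1 was lower, but 2 were higher without replicate 1 at 0.5 h and 5 without replicate 3 at 24 h, and the lower call was lost without replicate 3 at 0.5 h. Of 18 hypoxia and glycolysis genes, 4 (22.2%) were higher, with VEGFA the largest, and 1 was lower. The higher count was 2 without replicate 1 or 3 at 0.5 h or replicate 3 at 24 h, and 3 were lower with median centring. Among 18 apoptosis regulators, 4 (22.2%) were higher, or 2 without replicate 1 at 0.5 h, with BMF, which activates cell death, at 0.22 and 0.094 on its other probe set. Another 2 were lower, or 1 without replicate 3 at 0.5 h, with the survival factor MCL1 at -0.18. Of 12 circadian clock genes 3 were higher, or 1 without replicate 1 or 3 at 0.5 h, and of 11 heat shock and chaperonin genes 3 were higher. Of 11 NRF2 targets, 1 was higher and 2 were lower, and none was called without replicate 3 at 0.5 h or replicate 1 at 24 h.

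The noncoding gene MIR554 was among the largest falls. Of the 8 largest called differences among genes with noncoding types of symbol (such as MIR, LINC or antisense), 6 were microRNA hairpin loci. There the array reads transcripts across the locus and not the mature microRNA. Long noncoding genes with other symbols were outside this choice. The differences of all 1351 long noncoding RNA genes ranged from -0.50 to 0.37. MIR554 scored 1.18 and 1.33 on the 0.5 h arrays and 0.36, 0.40 and 0.33 on the 24 h arrays, a difference of -0.89 ± 0.038 (SE) with adjusted p = 4.43e-11, second only to CCN2 among all genes that fell. It lies within TUFT1 on the same strand, and TUFT1 went from 1.41 and 1.52 to 1.11, 1.19 and 1.15. MIR3122 lies within DTL on the same strand and fell by 0.34 ± 0.046 (SE) beside -0.59 for DTL. MIR2355 lies within KLF7 on the same strand, yet it went from 0.70 and 0.73 to 0.33, 0.16 and 0.24 while KLF7 scored 1.52 and 1.51 on the 0.5 h arrays and 1.49, 1.53 and 1.51 on the 24 h arrays. MIR3671, within JAK1 on the same strand, rose by 0.35 ± 0.052 (SE) beside 0.05 for JAK1, which was not called. MIR3918 fell by 0.40 ± 0.044 (SE) and lies opposite in strand to SYTL3. MIR221 went from 2.26 and 2.28 to 1.94, 1.85 and 1.91 and returned by 0.23 ± 0.033 (SE) at 48 h. It lies within MIR222HG on the same strand, which was not among the genes tested. The long noncoding genes DPYD-AS1 and LINC00847 rose by 0.37 ± 0.036 (SE) and 0.36 ± 0.029 (SE).
The mature sequences of 4 of these loci are shown with their seed, bases 2 to 8, in capitals, since the seed sets which messages a microRNA can pair with (RefSeq, GRCh38.p14, 5′ to 3′). They lie at chr1:151545811-151545831, plus strand, for miR-554, chr1:212077622-212077643, plus strand, for miR-3122, chrX:45746180-45746202, minus strand, for miR-221-3p, and chr2:207109999-207110020, minus strand, for miR-2355-3p. No seed is shared among them.
hsa-miR-554: gCUAGUCCugacucagccagu
hsa-miR-3122: gUUGGGACaagaggacggucuu
hsa-miR-221-3p: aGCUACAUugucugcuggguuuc
hsa-miR-2355-3p: aUUGUCCUugcuguuuggagau

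A smaller set of genes turned at 24 h. Of the genes called in both changes, 156 moved in opposite directions, 105 up then down and 51 down then up, while 330 rose again and 329 fell again. These counts describe changes that share the 24 h arrays. EGR1 regained 0.27 ± 0.029 (SE) by 48 h, to a mean of 2.03, still under its 0.5 h mean of 2.63. HBEGF regained 0.24 ± 0.031 (SE) and ended at 0.91 beside 0.96 at 0.5 h, and EDN1 regained 0.29 ± 0.031 (SE). In the other direction, TMEM158 and TMEM156, membrane proteins, rose by 0.29 ± 0.034 (SE) and 0.34 ± 0.035 (SE) to 24 h and lost 0.24 and 0.23 by 48 h. CTSS, a lysosomal protease, went from 1.27 and 1.29 to 1.46, 1.52 and 1.47 and fell back by 0.20 ± 0.031 (SE).

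Markers of other cell types were called at 10% in each list below, beside 17.2% of all genes. The lists are too short to set these shares apart. Of 10 blood cell markers, 1 was called, CSF1R at 0.16 ± 0.030 (SE), and the summed score of the list lay between 3.65 and 3.85 at 0.5 h and between 3.69 and 3.80 at 24 h. Of 10 fibroblast and endothelial markers, 1 was called, KDR, higher by 0.39. The summed score of this list, KDR included, went from between 1.87 and 1.93 to between 2.19 and 2.29. The defining markers CD14, LUM, DCN and VWF lay between -0.12 and 0.15 on the 5 arrays.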

How the data were processed

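Cells were harvested at 10 times after EGF and RNA was hybridised to 15 arrays. The authors processed each array separately with single-channel array normalisation (SCAN) and deposited 1 score per probe set; its version is not given in the sources. Per the methods, arrays judged affected by a technical problem were excluded before deposit. Of 39937 probe sets, 15426 carried 1 gene symbol in the platform annotation and 24511 were unnamed; for 534 genes with several probe sets, the one with the highest mean over the 15 arrays was kept.

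A linear model of the scores of 14675 genes (limma 3.58.1, run in R 4.3.3) held time as a factor over all 15 arrays, variances were moderated, and p-values were adjusted over all genes by the Benjamini-Hochberg method (threshold 0.05). The fit was tested on simulated data. The few arrays limit the precision, and hours with 1 array add no error estimate.

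Groups came from the sample titles. Genes were named by rule: the 12 largest called differences each way, up to 6 called members and the defining members of each list, and up to 8 genes that turned after 24 h. Symbols of small RNA, LOC, LINC, antisense, intronic, divergent, open reading frame and olfactory receptor genes and XIST were left out of the largest differences and the turning genes. Up to 8 called genes with such noncoding symbols were named apart. KLF10, IER5, CDC25B, ELOVL6 and the genes spanning hairpin loci were added after their values were seen. The members and lists were chosen with earlier results of these data known. Alternatives were other array sets, scalings, filters, probe set rules, variance models, a replicate block and leaving out each array. Replication-dependent histones were not measured under a symbol.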

Additional observations from a re-analysis of the deposited data

How the results depend on the processing

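Testing all 39937 probe sets called 3966 (2253 higher, 1713 lower), and requiring a difference of at least 0.2 left 532 genes (260 higher, 272 lower). Leaving out each of the 5 arrays in turn gave 1472 to 2181 genes, 787 to 1239 higher and 672 to 969 lower, lowest in number without replicate 1 (1472) or 3 (1685) of the 0.5 h arrays, which leaves 1 array there, taken to vary like the others. The members of cholesterol synthesis called higher ranged from 7 to 12 against 14, with 7 without replicate 1 of the 0.5 h arrays, and the genes whose changes differed from 489 to 762 against 879, with 489 without replicate 3 of the 24 h arrays. KLF7, not called, ranged from -0.015 to 0.0040 and was above 0 without replicate 1 of the 24 h arrays. With the other scalings, filters and variance models the counts over all genes stayed within 1.5 times. Among list counts, cytosolic ribosomal proteins called lower went from 7 to 11 and hypoxia genes called lower from 1 to 3 with median centring, and immediate-early factors called higher from 2 to 1. Counts with quantile normalisation were 1300 higher and 1208 lower, and median centring gave 47.1% of the calls higher beside 57.8%, with a median difference of -0.0087 over all genes. Licensing genes called lower stayed at 18 or 19 without any 1 array, and G2 and M phase genes at 37 to 45. Same-numbered arrays deviated together by correlations of 0.0187 and -0.030 (0.5 h with 24 h) and 0.0103 to 0.0297 (24 h with 48 h). With 2 arrays at 0.5 h, the deviations of replicates 1 and 3 there mirror each other. These values cannot show whether replicate numbers pair the arrays, and no source says so. With the replicate block 2254 genes were called (1300 higher, 954 lower). The alternatives for list counts and for the contrasts with 48 h were added after seeing the data. Of 140 named genes followed through the alternatives, 13 changed call or sign under some alternative. ELOVL6 is not counted among these 13, although its call was lost as given above. The 24511 unnamed probe sets and the single arrays between 1 h and 18 h limit the account.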

Other observations

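Groups of symbols noted after seeing the values are given as a description, with no test. Of 436 genes whose symbol is ZNF with a number, most of which encode zinc finger proteins, 68 (15.6%) were higher at 24 h and 26 (5.96%) were lower, beside 9.96% and 7.26% of all genes. ZNF367, among the 12 largest falls, moved against that balance. Of 1351 long noncoding RNA genes, 110 (8.14%) were higher and 39 (2.89%) were lower. Of 934 microRNA genes, 35 (3.75%) were higher and 49 (5.25%) were lower.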
